A study of Mus musculus with 451 samples.

Results

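The expression of 10 genes of the Wnt pathway was examined in tail tendon cells sequenced one by one. The genes were chosen by name: the secreted inhibitors Wif1, Dkk2, Dkk3, Sfrp1, Sfrp2 and Frzb, the receptor Fzd1, the co-receptor Lrp6, the ligand Wnt5a and the feedback gene Axin2. All 10 were among the 48795 gene symbols of the count table, and 9 of them had at least 1 read. The cells came from the tail tendons of 4-week-old C57BL/6 mice that were either wild-type (WT) or lacked Mkx (Mkx-/-). Mkx encodes Mohawk, a homeobox transcription factor of the tendon lineage. A Fluidigm C1 high-throughput device had caught them singly, 227 of WT and 224 of Mkx-/- mice. The labels name no animal and no chip, so each genotype was 1 sample, no test between genotypes was made, and chip and genotype cannot be told apart. The intervals below are 95% intervals for counting error only, and they do not cover differences between animals. Those of levels and ratios treat each read as an independent count. They thus do not cover repeated reads of 1 molecule or the spread between cells.

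Wnt proteins are secreted, lipid-modified ligands. In the β-catenin branch of the pathway a Wnt protein joins a Frizzled receptor and the co-receptor Lrp5 or Lrp6 on the cell surface, the destruction complex built on Axin is held back, and β-catenin acts with TCF/LEF factors in the nucleus. Secreted inhibitors work outside the cell. Wif1 and the Sfrp proteins, among them Frzb, bind Wnt ligands, whereas Dkk proteins of the Dkk1 and Dkk2 type bind Lrp5 and Lrp6. Dkk3 is a divergent member of the Dkk family that is not known as a clear Lrp6 ligand. Axin2 is both a target of β-catenin and a brake on it. In the skeleton, Wnt signalling is known for its part in bone and cartilage formation.

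The deposited values were raw read counts that summed to 13630536 reads in WT and 14145394 reads in Mkx-/- cells, with cells ranging from 13076 to 335813 reads. A level is given in CPM, the counts summed over the cells of a group and scaled to a common total as counts per 1e6 reads. The cells were clustered again with the genes of the Wnt lists left out, and 3 cell states resulted. The TPC-like state (tendon progenitor cell, 45.8% of WT and 42.9% of Mkx-/- cells) was named from Cd44, Thy1, Ly6a, Fstl1 and Tppp3, and the TC-like state (tenocyte, 74 and 81 cells) from Col11a2, Col1a1, Col1a2, Sparc, Tnmd and Fmod. The summed TPC markers stood at 23810 CPM in the TPC-like and 4505 CPM in the TC-like state of WT, and at 23963 and 5446 CPM in Mkx-/-, although none of them was among the 10 leading genes of the TPC-like state by fold. The TC-like state was led by the cartilage collagen gene Col2a1, with Col11a2, Tnmd and Fmod among its 10 leading genes. The remaining state (49 and 47 cells) was led by Dmkn, Serpine2, Smoc2 and several predicted genes and is called the third cluster, since its name would rest on only 2 markers. Mkx itself was read at 33.8 CPM in 52 WT cells and at 15.5 CPM in 29 Mkx-/- cells. The sources used here do not give the deleted part of the gene, so these reads neither check the genotype labels nor speak against them.

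The genes differed widely in level. Per kilobase of exon, Wif1 stood highest in both genotypes (155.2 CPM in WT against 196.7 CPM in Mkx-/-), and Dkk3 followed (32.7 and 59.8 CPM). Dkk2 (4.57 and 7.20 CPM), Fzd1 (4.23 and 6.19 CPM) and Lrp6 (3.75 and 3.14 CPM) formed a lower group. In WT the counting intervals of these 3 genes overlapped per kilobase. Wnt5a (0.844 and 0.506 CPM), Axin2 (0.3997 and 1.079 CPM), Sfrp1 (0.201 and 0.162 CPM) and Frzb (0.0227 and 0.437 CPM) were rarely read. The study cites the protocol of the device, but the sources used here do not state whether reads cover whole transcripts or their ends. This order thus holds only for a level spread evenly over the exons. Without division by length, Lrp6 stood above the other genes of the lower group in WT, at 36.8 CPM (33.7 to 40.2). Fzd1 was at 18.5 CPM (16.3 to 20.9) and Dkk2 at 16.9 CPM (14.8 to 19.2). All 7 genes with at least 100 reads are shown in the plot of levels by cell state.

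**Figure D1:**
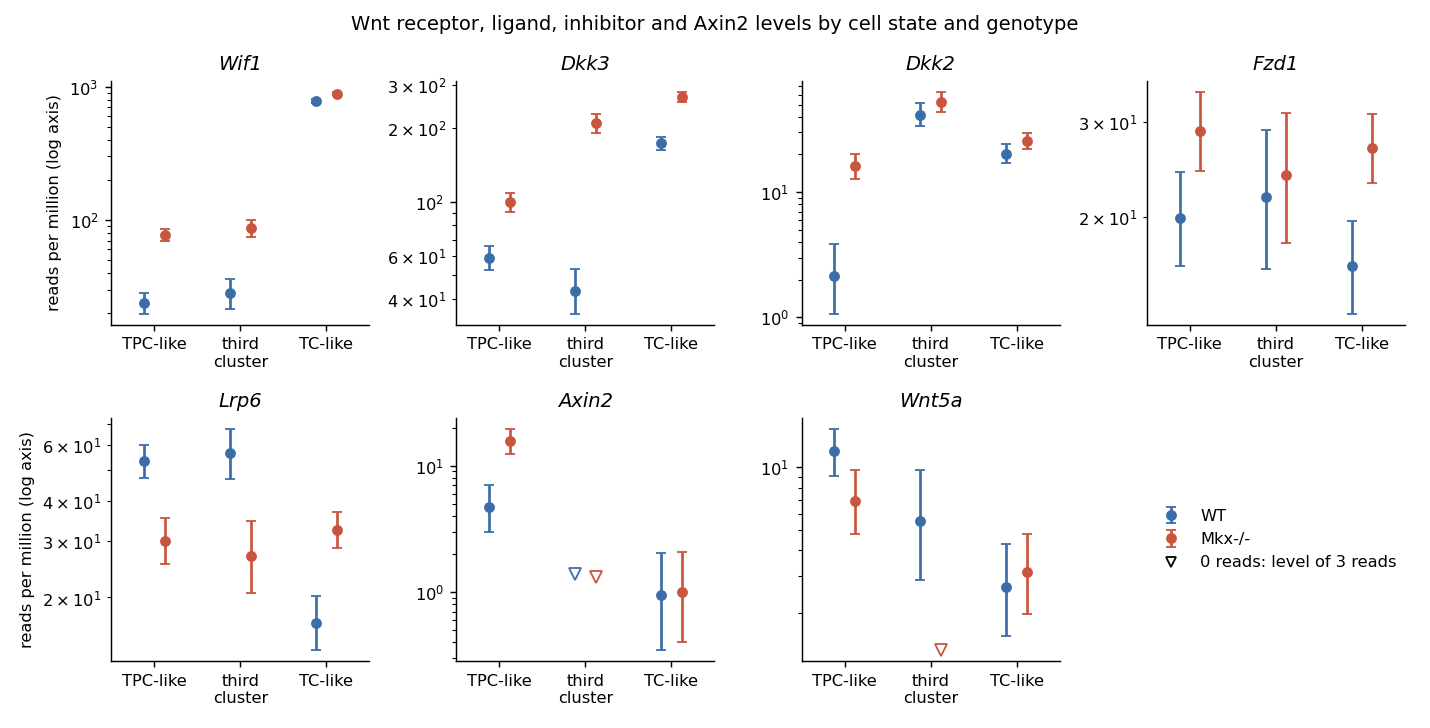
Level of each gene in CPM (log axis, with its own range in each panel) in the TPC-like, third-cluster and TC-like cells of WT (blue) and Mkx-/- (red) mice. Points are counts summed over cells with exact Poisson 95% intervals, and open triangles mark sums of 0 reads at the level of 3 reads. Wif1 is highest in TC-like cells of both genotypes, and the order of the genotypes for Lrp6 turns between TPC-like and TC-like cells.

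Wif1, which binds Wnt ligands through its WIF domain, was a gene of the TC-like state in both genotypes, and its low level in the other states was higher in Mkx-/- cells. In TC-like cells the level was 779 CPM in WT (758 to 801) against 887 CPM in Mkx-/- (865 to 909). The lowest cells had no read, the median cell of WT stood at 643 CPM and that of Mkx-/- at 672 CPM, and the highest at 2670 and 5407 CPM. The TC-like cells of the genotypes overlapped, with close medians and a higher top in Mkx-/-. In TPC-like cells the level was 23.8 CPM in WT (19.8 to 28.4) and 77.3 CPM in Mkx-/- (69.7 to 85.5). The median TPC-like cell was at 0 in WT and at 42.1 CPM in Mkx-/-, with the highest cells at 233 and 933 CPM. In the third cluster the level was 28.3 CPM in WT against 86.2 CPM in Mkx-/-, with median cells at 0 and 42.9 CPM. Against TPC-like cells, the TC-like level was 32.7-fold higher in WT (log2 ratio 5.03, 4.77 to 5.30) and 11.5-fold higher in Mkx-/- (3.52, 3.37 to 3.67).

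Between genotypes the Wif1 level was 3.24-fold higher in Mkx-/- TPC-like cells (log2 ratio 1.70, 1.40 to 2.00) and 1.14-fold higher in Mkx-/- TC-like cells (0.19, 0.13 to 0.24). The median log2 ratio of the 8215 genes with at least 100 reads in TC-like cells was 0.21, so Wif1 was not above the middle gene there. Over 9 alternatives the TC-like log2 ratio of Wif1 ranged from 0.006 to 0.31. In the third cluster the Wif1 level was 3.05-fold higher in Mkx-/- (log2 ratio 1.61, 1.19 to 2.05). A single WT well of the third cluster held 62.3% of that group's Wif1 reads, together with 39.5% of its Tnmd and 47.9% of its Fmod reads. In Mkx-/- 1 cell of the third cluster held 35.9% of the Wif1 reads. The third-cluster log2 ratio was 2.36 when the leading cell of each genotype was set aside. In the TPC-like state 1 Mkx-/- cell held 25.8% of the Wif1 reads, and the log2 ratio was 1.48 without the leading cells. The share of cells with a Wif1 read was compared after thinning each cell to 28000 reads. It was 37.1% of 89 WT and 67.8% of 87 Mkx-/- TPC-like cells, a difference of 30.7 percentage points (16.1 to 43.6). In the third cluster it was 17.1% of 41 and 60.5% of 38 cells, a difference of 43.5 points (22.2 to 59.8). Without thinning, the shares were 48.1% and 80.2% of TPC-like cells and 30.6% and 72.3% of the third cluster. In TC-like cells nearly every cell had a read, with 97.3% in WT and 93.8% in Mkx-/-.

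**Figure D2:**
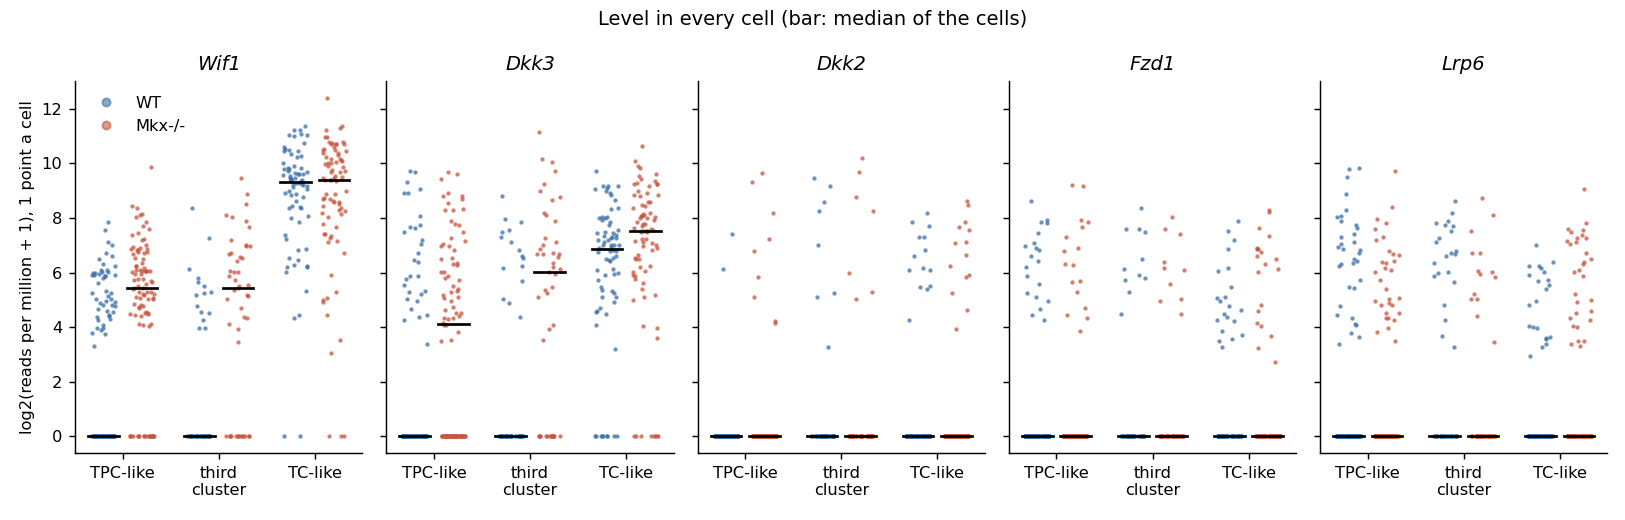
Level of 5 genes in every cell, as log2(CPM + 1), by state and genotype (WT blue, Mkx-/- red), with a bar at the median cell. The median TPC-like cell lies at 0 for Wif1 in WT and above 0 in Mkx-/-, while for Dkk2, Fzd1 and Lrp6 the median cell lies at 0 in every group.

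Other genes of the TC-like state and of other cell types also differed between the genotypes in these cells. The TC marker Tnmd, which encodes tenomodulin, was read in 71.9% of WT and 90.8% of Mkx-/- TPC-like cells at the same depth, and Fmod, which encodes fibromodulin, in 75.3% and 86.2%. Col11a2, another TC marker, went the other way (22.5% and 17.2%), and 1 cell held 59.4% of its Mkx-/- TPC-like reads. The TC markers Col1a1, Col1a2 and Sparc were read in every TPC-like cell of both genotypes. Mbp, the myelin basic protein gene, was read in 12.4% of WT and 26.4% of Mkx-/- TPC-like cells. As a percent of the TC-like level, the TPC-like level of Wif1 was 3.06% in WT and 8.72% in Mkx-/-. The same percent was 1.87% and 2.57% for Tnmd, 1.51% and 2.21% for Fmod, 1.09% and 9.70% for Col11a2 and 0.826% and 4.61% for Col2a1. Without the leading cells the Col11a2 values were 1.07% and 4.24%, and those of Wif1 were 2.81% and 6.84%. The endothelial list summed to 121.7 CPM in WT against 67.95 CPM in Mkx-/- TPC-like cells, and nearly all of it was Tek (613 of 623 reads in WT, 313 of 334 in Mkx-/-). Of the other 4 endothelial markers, Pecam1 had 2 reads in WT and 11 in Mkx-/-, and none had more than 5 otherwise. The mural list was low in both (8.20 and 5.90 CPM). The part of these markers in the Wif1 difference was not tested. Without the 10 WT and 9 Mkx-/- wells that had reads of 3 or more markers of another cell type, the Wif1 log2 ratio in TPC-like cells was 1.65.

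**Figure D3:**
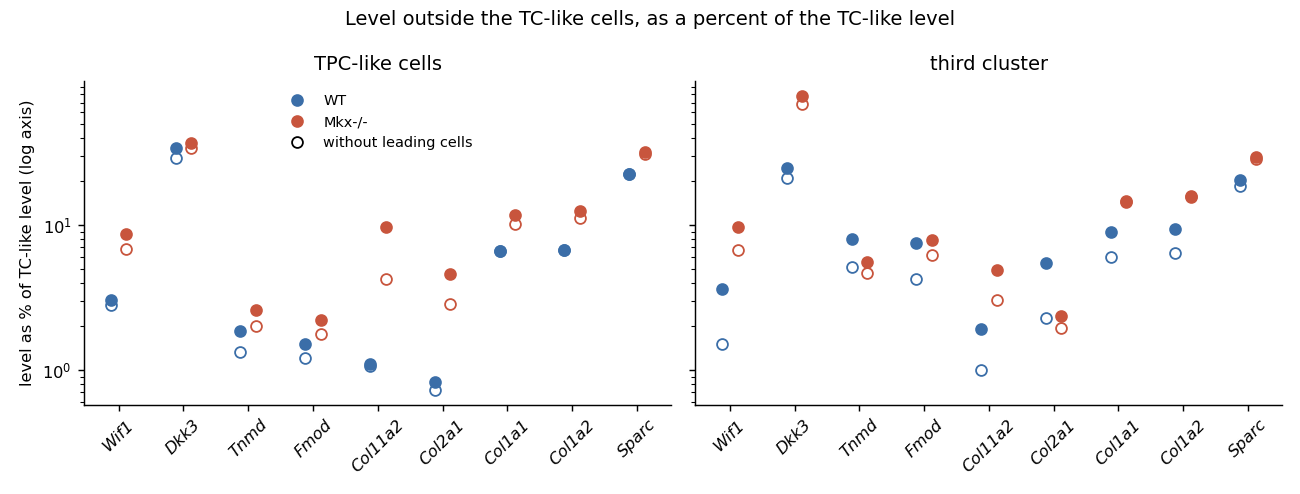
Level of Wif1, Dkk3, the 6 TC markers and Col2a1 in TPC-like cells (left) and the third cluster (right), as a percent of the level in TC-like cells of the same genotype (log axis). Filled points are sums over all cells of WT (blue) or Mkx-/- (red) mice, and open points leave out the cell with most reads of that gene in each state. In TPC-like cells the percent of Wif1 is 3.06% in WT and 8.72% in Mkx-/-, and the Mkx-/- point lies above the WT point for every gene shown. The TC-like level that the percent is taken of is lower in Mkx-/- than in WT for Col11a2, Col2a1, Col1a1, Col1a2 and Sparc.

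The upstream bases of Wif1 and Fzd1 are shown because, of the genes with at least 100 reads, Wif1 differed most and Fzd1 least between the TPC-like and TC-like states of WT cells. RefSeq's table (GRCm38.p6) held promoters for 6 of the 10 genes (Axin2, Dkk2, Frzb, Fzd1, Sfrp2 and Wif1). The 250 bases before the start of transcription lay at chr10:121033754-121034003 on the plus strand for Wif1 and at chr5:4758217-4758466 on the minus strand for Fzd1. Capitals mark GC boxes (GGGCGG or CCGCCC) and TATA boxes (TATAAA, on the strand of the gene only), which do not overlap each other in these sequences.
Wif1: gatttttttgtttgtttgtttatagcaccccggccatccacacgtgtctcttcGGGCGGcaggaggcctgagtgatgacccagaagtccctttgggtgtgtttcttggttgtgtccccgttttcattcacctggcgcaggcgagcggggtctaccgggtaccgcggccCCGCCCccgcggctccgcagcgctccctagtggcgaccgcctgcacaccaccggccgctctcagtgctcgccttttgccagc
Fzd1: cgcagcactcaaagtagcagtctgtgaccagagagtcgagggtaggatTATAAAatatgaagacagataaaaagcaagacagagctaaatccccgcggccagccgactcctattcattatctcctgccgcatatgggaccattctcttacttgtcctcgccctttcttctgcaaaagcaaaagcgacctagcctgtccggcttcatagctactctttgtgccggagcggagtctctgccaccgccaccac
The GC boxes of Wif1 lay within the 250 bases, the nearer one 82 bases before the start, and the TATAAA of Fzd1 lay in the upstream part of its window. A GC box was present in 32.7% and TATAAA in 7.59% of all 32851 promoters. The letters of a TCF/LEF site (CTTTGAT or ATCAAAG) were in none of the 6 windows and in 3.21% of all promoters.

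Dkk3 was read at higher levels in Mkx-/- cells of all 3 states, with the widest gap in the third cluster. The level was 58.8 CPM in WT against 99.7 CPM in Mkx-/- TPC-like cells, 43.1 against 210.3 CPM in the third cluster, and 173.7 against 269 CPM in TC-like cells. The median cell was at 0 in the TPC-like state and the third cluster of WT and at 116.5 CPM in the TC-like state. In Mkx-/- the median cells stood at 16.4, 64.7 and 184.2 CPM in the same order, with single cells reaching 2255 CPM. The log2 ratio of Mkx-/- over WT was 2.29 (1.96 to 2.62) in the third cluster, against 0.63 (0.52 to 0.74) in the TC-like state and 0.76 (0.55 to 0.97) in the TPC-like state, so the interval of the third cluster lay apart from the others. The difference between the states was not tested. At 28000 reads a cell, Dkk3 was read in 28.1% of WT and 49.4% of Mkx-/- TPC-like cells (difference 21.3 points, 6.94 to 34.6), in 29.3% and 63.2% of the third cluster (33.9 points, 11.9 to 51.7) and in 79.7% and 85.2% of TC-like cells (5.46 points, -6.56 to 17.6). Against TPC-like cells, the TC-like level was 2.95-fold higher in WT and 2.70-fold higher in Mkx-/- cells. The level of Dkk3 was thus less unequal between these states than that of Wif1. Over 9 alternatives in each state the log2 ratio of Dkk3 stayed above 0 but moved, between 0.60 and 1.87 in TPC-like cells and between 1.19 and 3.15 in the third cluster.

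Reads of both Wif1 and Dkk3 in the same cell were common in the TC-like state and rare in the other states of WT. At 28000 reads a cell, both had a read in 77.03% of WT and 79.01% of Mkx-/- TC-like cells. In TPC-like cells both had a read in 7.87% of WT and 31.03% of Mkx-/- cells, and in the third cluster in 4.88% and 39.5%. Cells without a read of either made up 42.7% of WT and 13.8% of Mkx-/- TPC-like cells. The joint shares were not set against those that the share of each gene alone would give, so no link between the genes is read from them.

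**Figure D4:**
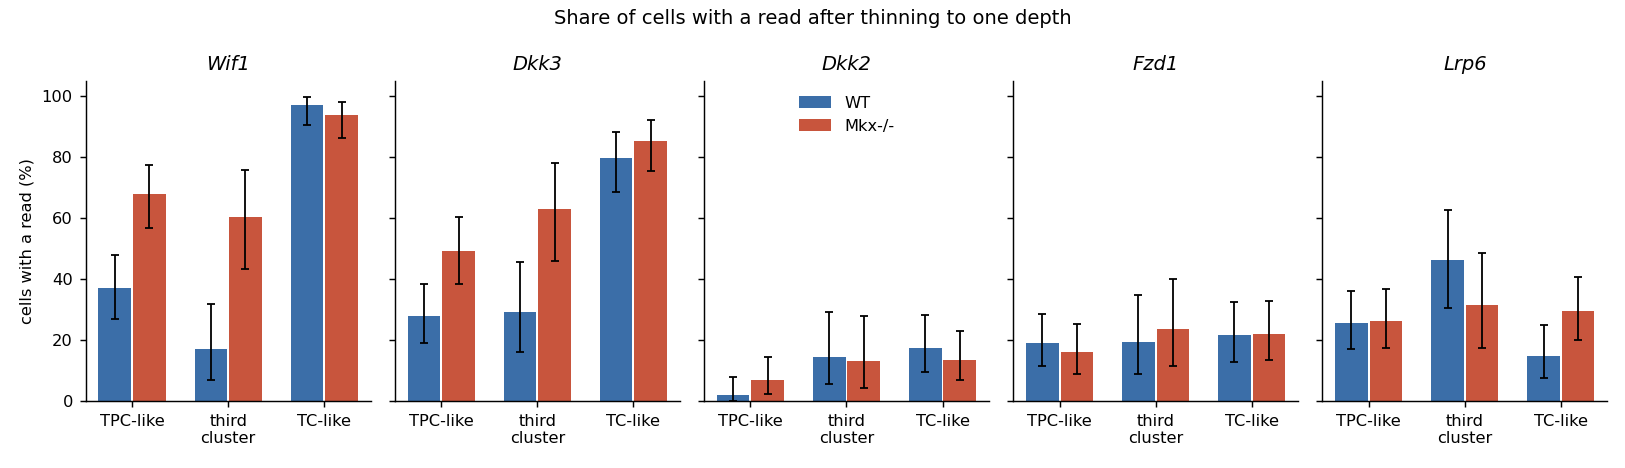
Share of cells (%, axis from 0) with at least 1 read of each gene after every cell was thinned to 28000 reads, by state and genotype (WT blue, Mkx-/- red), with exact Clopper-Pearson 95% intervals. For Wif1 and Dkk3 the Mkx-/- share is above the WT share in TPC-like cells and the third cluster, and for Fzd1 the intervals of the genotypes overlap in every state.

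Dkk2, which binds Lrp5 and Lrp6, was read in few cells, 24 of 227 in WT and 30 of 224 in Mkx-/-. Over all cells its level was 16.9 CPM in WT against 26.6 CPM in Mkx-/- (log2 ratio 0.66, 0.42 to 0.90), and the log2 ratio was 0.12 at 28000 reads a cell. The third cluster held the highest level in both genotypes, 41.7 CPM in WT against 52.6 CPM in Mkx-/-, and 1 cell held 36.7% and 45.4% of those reads. The log2 ratio there was 0.33 (-0.07 to 0.75) and turned to -1.34 at 28000 reads a cell. In TC-like cells the levels were 20.3 and 25.5 CPM, with a read in 14 cells of each genotype. TPC-like cells differed most, with 11 reads in 2 WT cells and 79 reads in 9 Mkx-/- cells (2.15 and 16.1 CPM). This sum was below 100 reads, so it is given as values only.

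The other secreted inhibitors of the set were close to or at 0. Sfrp1 had 12 reads in 2 WT cells, both TC-like, and 10 reads in 1 Mkx-/- cell of the third cluster. Frzb, also called Sfrp3, had 1 read in WT and 20 reads in 3 Mkx-/- cells, of which a single TPC-like cell held 17. Sfrp2 had no read in any cell. Taking 3 counts as the limit that a count of 0 allows, the level was up to 0.220 CPM in WT or 0.212 CPM in Mkx-/-. By the same limit, 0 of 227 and 0 of 224 cells allow up to 1.32% and 1.34% of cells with a read, which does not bound the cells that express the gene. The exact 95% upper bounds were 1.61% and 1.63%. On NCBIM37, GENCODE M1 places Sfrp2 on chromosome 3 from 83570243 to 83578238 on the plus strand. Its last 464 bases lie within the bounds of Gm16790 on the opposite strand, which has an exon reaching into the last 300 bases. The symbol Gm16790 was not in the count table, and no source used here says whether counting used strand. Of protein-coding genes with an exon of another gene in their last 300 bases, 21.5% of 1598 were at 0 reads, against 24.4% of 18654 genes without one. Whether the overlap bears on the Sfrp2 count was not tested.

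Fzd1, a Frizzled receptor, was spread evenly over the cell states. Its level was 19.9, 21.8 and 16.2 CPM in the TPC-like, third-cluster and TC-like cells of WT and 28.9, 23.9 and 26.8 CPM in those of Mkx-/-. The median cell was at 0 in every state, and the highest cells were at 395 CPM (WT) and 599 CPM (Mkx-/-). The TC-like level differed from the TPC-like level by a log2 ratio of -0.30 (-0.71 to 0.11) in WT and -0.11 (-0.43 to 0.22) in Mkx-/-, so neither state was higher beyond counting error. Between genotypes the level over all cells was 1.46-fold higher in Mkx-/- (log2 ratio 0.55, 0.32 to 0.79). The share of cells with a read was close in the genotypes. At 28000 reads a cell it was 20.1% in WT and 19.9% in Mkx-/- (difference -0.20 points, -7.95 to 7.55). The median level among cells with a Fzd1 read was 56.4 CPM in WT against 78.02 CPM in Mkx-/- before thinning. With each cell weighted equally the log2 ratio was 0.25.

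Lrp6, a co-receptor for Wnt ligands, was higher in WT in the TPC-like state and higher in Mkx-/- in the TC-like state. Its level in WT was 53.5 CPM in TPC-like cells, 56.5 CPM in the third cluster and 16.7 CPM in TC-like cells. In Mkx-/- it was 30.1, 26.95 and 32.6 CPM. The WT levels thus spread 3.21-fold between TPC-like and TC-like cells (log2 ratio -1.68, -2.02 to -1.35), while the Mkx-/- levels differed by a log2 ratio of 0.11 (-0.19 to 0.42). The log2 ratio of Mkx-/- over WT was -0.83 (-1.13 to -0.54) for the TPC-like state and -1.07 (-1.54 to -0.61) for the third cluster, but 0.97 (0.63 to 1.31) for the TC-like state. Of 7373 genes with at least 100 reads in both states, 20.5% turned sign between TPC-like and TC-like cells with counting intervals that left out 0 in both. The TC-like difference was also seen in the share of cells with an Lrp6 read at 28000 reads, 14.9% in WT and 29.6% in Mkx-/- (14.8 points, 1.55 to 27.2). In TPC-like cells the shares were 25.8% and 26.4%, and the median level of cells with a read was 108.2 CPM in WT against 58.4 CPM in Mkx-/-. Over all cells these opposite differences left a log2 ratio of -0.26 (-0.45 to -0.07). A cell with reads of both Fzd1 and Lrp6 was rare, 12 WT and 13 Mkx-/- cells at 28000 reads (5.88% and 6.31% of the cells kept). At that depth Fzd1 was read in 41 WT and 41 Mkx-/- cells and Lrp6 in 53 and 59. No link between them is read from this count.

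Wnt5a, a ligand known mainly for signalling without β-catenin, had 90 reads in 12 WT cells and 56 reads in 4 Mkx-/- cells. Its level was 11.9, 5.56 and 2.68 CPM in the TPC-like, third-cluster and TC-like cells of WT. In Mkx-/- it was 6.92 CPM for the TPC-like state and 3.16 CPM for the TC-like state, and the third cluster had no read. In Mkx-/- 1 cell held 79.4% of the TPC-like reads, and 1 cell held all 22 TC-like reads. The log2 ratio over all cells was -0.74 (-1.25 to -0.24), and it was 0.20 with each cell weighted equally and 0.14 at 28000 reads a cell. A direction between genotypes could therefore not be given for Wnt5a.

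Axin2 was read in 7 WT and 14 Mkx-/- cells, with 30 and 84 reads. Most of these (24 and 77) were in the TPC-like state, at 4.69 CPM in WT against 15.7 CPM in Mkx-/-. TC-like cells stood at 0.945 and 1.005 CPM, and the third cluster had no read in either genotype. The log2 ratio over all cells was 1.43 (0.81 to 2.08). A single Mkx-/- cell held 54.8% of the reads, and the log2 ratio was 0.73 with the leading cells left out. At 28000 reads a cell, the shares of cells with an Axin2 read differed by 0.46 points (-3.30 to 4.25). In TPC-like cells the log2 ratio was 1.74 (1.06 to 2.47), and it was 1.01 without the leading cells. There 1 Mkx-/- cell held 59.7% of the reads, and the shares at 28000 reads differed by 0.13 points (-7.48 to 7.83).

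Counted together, 7 of the 10 genes reached 100 reads. Of these, 1 (Axin2) was at least 2-fold higher in Mkx-/- over all cells, where 7.23% of 10963 genes were, and 0 were at least 2-fold lower, where 6.12% were. By a rule that asks for a counting interval without 0 and for the same sign with equal cell weights, at 28000 reads and without leading cells, Wif1, Dkk2, Dkk3, Fzd1 and Axin2 were higher (5 of 7, 34.5% of all genes) and Lrp6 was lower (1 of 7, 26.3%). The median log2 ratio was 0.55 for the 7 genes and 0.05 for all 10963. Within states, 5 of the 10 genes reached 100 reads. In TPC-like cells Wif1 and Axin2 were at least 2-fold higher (8.07% of all genes), and 0 were 2-fold lower (7.48%). In the third cluster Wif1 and Dkk3 were at least 2-fold higher (12.1%) and Lrp6 was 2-fold lower (8.85%). Over 9 alternatives the third-cluster log2 ratio ranged from 0.89 to 3.02 for Wif1 and from -1.36 to -0.39 for Lrp6. Wif1 was under 2-fold with clustering in 10 dimensions, and Lrp6 was under 2-fold with that clustering (-0.39), without alignment (-0.43), with 3 equal groups by marker order (-0.60) and with equal cell weights (-0.89). In TC-like cells 0 passed 2-fold in either direction (14.1% of all genes higher and 6.7% lower). The median log2 ratio of all genes was 0.001 in TPC-like cells, 0.06 in the third cluster and 0.21 in TC-like cells. The TC-like ratios of single genes above were not corrected for this shift. Between the states, Wif1 and Dkk3 were at least 2-fold higher in TC-like than in TPC-like cells of both genotypes (4.63% of all genes), and Wnt5a and Axin2 were at least 2-fold lower (16.1%).

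Around these genes, a list of 95 Wnt pathway genes was laid out by role. Of the 95, 54 reached 100 reads and 8 had none. Over all cells 5 were at least 2-fold higher and 5 at least 2-fold lower in Mkx-/-, beside 7.23% and 6.12% of all genes, so nothing particular to the list is read from these counts or from those by role. The median log2 ratio of the list was 0.02. Among 19 ligands, 6 reached 100 reads, and 2 of these were 2-fold lower, Wnt2 (67.4 CPM in WT against 29.2 CPM in Mkx-/-, log2 ratio -1.21) and Wnt10b (13.8 and 5.73 CPM, -1.27). Both were mostly read in TPC-like cells, and Wnt2 was the most read ligand. Among 10 Frizzled receptors, of which Fzd1 had most reads, 7 reached 100 reads and 1 was 2-fold higher, Fzd8 (4.04 and 12.2 CPM, 1.60). Among 9 co-receptors and other receptors, 6 reached 100 reads. The receptor tyrosine kinase-like gene Ryk was read most (51.5 and 53.4 CPM), and Ror1, an orphan receptor that binds Wnt5a, was 2-fold lower (11.4 and 0.778 CPM, -3.87).

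Of 9 genes of R-spondin signalling and receptor turnover, 5 reached 100 reads, and 1 of these was 2-fold higher and 1 was 2-fold lower. Lgr5, an R-spondin receptor, was higher in Mkx-/- (1.32 and 20.3 CPM, log2 ratio 3.94), with 56.4% of its Mkx-/- reads in 1 cell and 3.46 as the log2 ratio without the leading cells. Znrf3, a ubiquitin ligase that removes Frizzled receptors, was lower (14.97 and 4.17 CPM, -1.84). Of the 15 secreted inhibitors 4 reached 100 reads, namely Wif1, Dkk2, Dkk3 and Sfrp4 (21.1 and 52.5 CPM, 1.32). Sfrp4 was concentrated in the third cluster, at 51.4 CPM in WT against 217.4 CPM in Mkx-/-. Over the 4 inhibitors the median log2 ratio was 0.76. The ligand carrier Wls had even levels (146.4 and 147.8 CPM). Of 20 intracellular transducers, 17 reached 100 reads and 0 passed 2-fold in either direction, with Csnk1a1, a casein kinase, read most (166.2 and 164.1 CPM).

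Of 11 feedback and target genes, 7 reached 100 reads. The TCF family gene Tcf7 was lower in Mkx-/- (9.54 and 3.39 CPM, log2 ratio -1.49), and its reads were mostly in TC-like cells of both genotypes. Wisp2 was higher (1.98 and 7.78 CPM, 1.97), but by 0.45 with each cell weighted equally. Wisp1, read most of this role, stood at 166.2 and 133.1 CPM, and Axin2 was the other gene past 2-fold. No direction was shared by the feedback and target genes, whose median log2 ratio was -0.32.

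**Figure D5:**
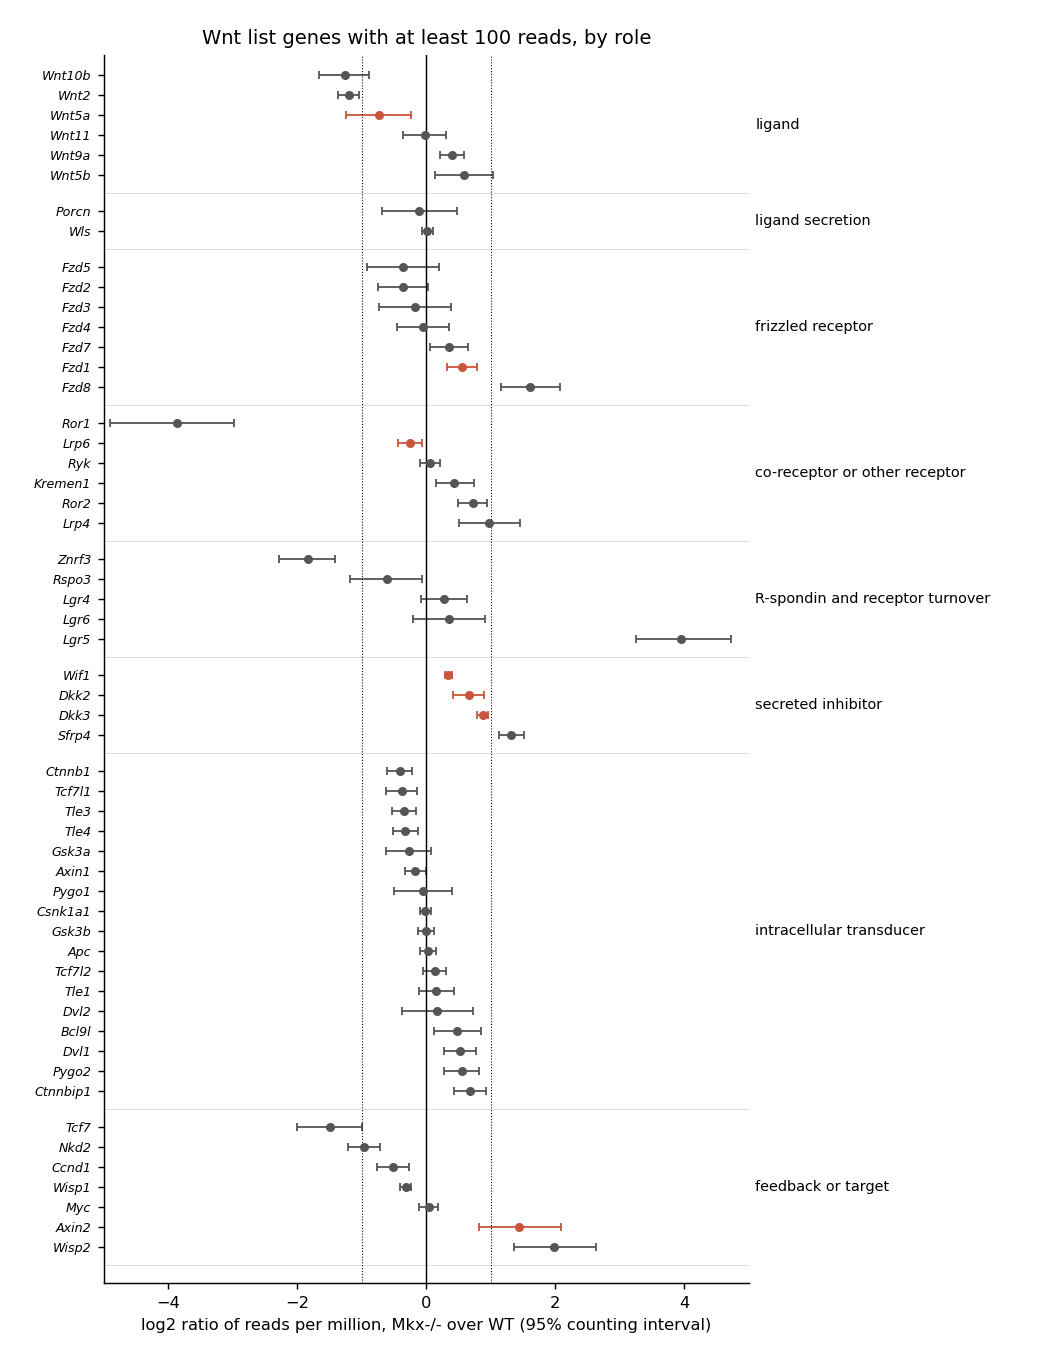
Log2 ratio of CPM in Mkx-/- over WT cells for the 54 Wnt list genes with at least 100 reads, grouped by role, with 95% counting intervals and dotted lines at 2-fold. The genes described one by one above are red. Among the secreted inhibitors Sfrp4 lies above 1, the intracellular transducers lie within 2-fold, and the ligands Wnt2 and Wnt10b lie below -1.

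The pattern of single genes over cells was compared by Pearson's r of log2(CPM + 1), computed within each genotype (227 and 224 cells) over 5125 genes read in at least 20% of cells. The genes of a cell share its library and depth, so r is a description. Wif1 was nearest to Col1a2 (r = 0.76 in WT and 0.61 in Mkx-/-) and Tnmd (0.70 and 0.61). Both are markers from which the TC-like state was named, and r was taken over the cells of all states, so it also holds the difference between states. Dkk3 was nearest to Pdgfrl (0.47 and 0.44) and Tnc, the tenascin C gene (0.48 and 0.42). For Fzd1 the nearest genes, Cdc34 and Mon2, reached no more than 0.20, and for Lrp6 the nearest, Reep3 and Cygb, no more than 0.22.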

How the data were processed

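The authors captured tail tendon cells on a Fluidigm C1 high-throughput chip, made Nextera XT libraries, filtered and trimmed the reads, mapped them with Bowtie2 and counted reads per gene with featureCounts (versions not given in the sources used here). The study's methods name mm9 and the submitters' notes mm10. The table has no coordinates, so the build could not be settled. Bowtie2 does not split reads over introns, and reads of near-identical copies may be placed on either.

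The deposited values were raw read counts, not unique molecules. By the series' design text, empty and multi-cell wells had been dropped beforehand. No cell was removed here, no doublet caller was run and 0 columns were left unused. Members and gene lists were chosen with earlier results of these data known. Named besides the 10 genes were the list genes past 2-fold, the most read gene of each role, and the 2 genes nearest in pattern.

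Counts were summed over cells and scaled to the summed reads. Levels have exact Poisson, shares exact Clopper-Pearson, share differences Newcombe and ratios exact conditional binomial intervals (95%, counting error only). A sum of 0 was set to 3 reads. Ratios of sums both at or below 3 reads were not taken. A gene was called when it had 100 reads and passed 2-fold. States came from Seurat 5.3.0 (R 4.3.3): 1000 variable genes per genotype, 14 Wnt list genes removed, 4 dimensions, resolution 0.4. The study used an older alignment of the genotypes and dropped some cells. For shares, cells were thinned to 28000 reads, leaving out 23 WT and 18 Mkx-/- cells. The scripts (Python 3.11.15, edgeR 4.0.16 for TMM factors) were tested on simulated data. Alternatives changed weighting, depth, scaling, filters and clustering. Leaving out wells with markers of other cell types was added after seeing the data. Some marker genes of other cell types are not reported here.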

Additional observations from a re-analysis of the deposited data

Results flagged for a closer look

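Lrp6 differed between genotypes in opposite directions in 2 cell states. The log2 ratio of Mkx-/- over WT was -0.83 in TPC-like cells but 0.97 in TC-like cells. With 1 sample a genotype the difference between the states was not tested, and 20.5% of 7373 genes showed such opposite signs beyond counting error. Across 9 alternatives in each state the ratio ranged from -1.26 to -0.63 in TPC-like and from 0.75 to 1.62 in TC-like cells.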

How the results depend on the processing

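No paired analysis was possible because the replicate numbers only name cells and pair none. Of 80 alternative counts, 64 stayed within 1.5 times. The exceptions follow. The count of the 10 genes 2-fold higher in Mkx-/- (1, Axin2) was 0 without the leading cell of each genotype, 0 at 28000 reads per cell and 0 among genes with 500 reads or more, where fewer genes reach the minimum, and 2 with each state weighted equally and 2 without a read filter and with a pseudocount of 1 CPM. For the Wnt list, the 5 higher genes became 3 without the leading cell, 1 at 28000 reads and 1 with 500 reads or more, and the 5 lower genes became 2 at 28000 reads, 10 without a read filter and 1 with 500 reads or more. The 2 genes lower in TC-like than TPC-like cells became 1 with clustering in 10 dimensions, 1 with 3 equal groups by marker order, 0 in clusters without alignment and 1 with a total without Col1a1, Col1a2 and Sparc. The 2 higher genes became 1 with 3 equal groups. The cause of these shifts in state counts was not tested.

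All but 7 alternative log2 ratios of single genes kept their sign. The 7 were of Wnt5a over all cells and of Dkk2 and Fzd1 in the third cluster, where Dkk2 ranged from -1.34 to 1.03 and Fzd1 from -0.34 to 0.54. At 28000 reads a cell the log2 ratio over all cells was 0.12 for Dkk2, 0.83 for Axin2 and 0.14 for Wnt5a.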
